A study of Mus musculus with 6 samples.

Results

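Lrrc17 encodes a leucine-rich repeat protein that is secreted from the cell. It is known from bone, where it holds back osteoclast formation driven by RANK ligand, and its place in the brain is little described. The gene was followed here as 1 of 32288 genes counted in 6 spatial transcriptomic sections of mouse brain, and it was chosen on measured values of these sections: its level was lower in E4 than in E3 in each of 3 matched pairs, in cortex and in hippocampus. Its E4 against E3 differences are therefore given as a description, with no test.

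Each section was 1 coronal hemibrain of a female mouse on a Visium array, which catches polyadenylated RNA in spots that can hold several cells or parts of cells. All mice carried human APOE in place of mouse Apoe coding exon 4, under the mouse Apoe promoter, as APOE3 (E3) or APOE4 (E4). The E3_young and E4_young sections came from mice of 3 months, and the E3_aged and E4_aged sections from mice of 24 months. The E3_FAD and E4_FAD sections came from mice of 12 months that also carried the 5xFAD transgenes, which include human APP with familial mutations under the neuronal Thy1 promoter, after a cross with the B6SJL 5xFAD strain. With 1 section in each group, a difference between 2 sections has no replicate check. In total 14524 spots entered, 1688 to 2773 in a section, and a section held 20343701 to 37266232 UMIs (unique molecular identifiers, 1 for each captured molecule). Human APOE was counted in all 6 sections, at 563 to 900 CPM in cortex (CPM is the number of UMIs of a gene per 1000000 UMIs of the area and section). Human APP stood at 94.7 CPM in E3_FAD cortex and 123 CPM in E4_FAD cortex, against at most 0.384 CPM in cortex or hippocampus of the other 4 sections.

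In the mm10 build Lrrc17 (ENSMUSG00000039883) lies on chromosome 5, from 21543559 to 21575904 on the plus strand, and its coding transcript has 4 exons. It lies within the span of Fbxl13, which is read from the minus strand between 21483847 and 21645634. Of the Fbxl13 exons, 3 overlap exons of Lrrc17. Fbxl13 was nearly absent from these sections, at no more than 0.353 CPM in cortex or hippocampus of any of them.

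The last exon of Lrrc17 holds a copy of another brain RNA, Bc1. Bc1 (ENSMUSG00000115783) is a short noncoding RNA of neurons, made by RNA polymerase III and carried into dendrites, where it dampens translation. It belongs to the ID family of retroposons, whose copies are scattered through rodent genomes. Bases 5 to 86 of the 168 bases of Bc1 stand unchanged, and in the same orientation, in the 3′ untranslated part of Lrrc17 exon 4, at chromosome 5 from 21575452 to 21575533. This run of 82 bases starts 90 bases after the stop codon and ends 371 bases before the annotated transcript end. The sequences at its edges are shown, read from GRCm38 on the plus strand, with the shared bases in capitals and the flanking bases in lower case.
Bc1, chr7:144914470-144914499: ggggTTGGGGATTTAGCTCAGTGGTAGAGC
Lrrc17, chr5:21575448-21575477: gggtTTGGGGATTTAGCTCAGTGGTAGAGC
Bc1, chr7:144914530-144914559: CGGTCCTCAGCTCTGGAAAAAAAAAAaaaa
Lrrc17, chr5:21575508-21575537: CGGTCCTCAGCTCTGGAAAAAAAAAAcaaa
The run ended in a stretch of 10 adenines in Lrrc17 and of 23 adenines in Bc1. A read that lies wholly within these 82 bases has the same letters in both genes, so its letters alone do not tell the genes apart. How the counting treated such reads, and how many reads lay wholly within the run, was not examined. Each value for Lrrc17 that follows is a count assigned to Lrrc17.

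Few annotated transcripts hold such a run. Of 32158 genes with an annotated transcript, 5 held 40 or more bases of the Bc1 body (the part ahead of the adenines) in the sense direction, and Lrrc17 had the longest stretch, 72 bases without the adenines. The next was Tatdn1 with 57 bases. A further 6 genes held such a stretch in antisense, led by Akap5 with 76 bases. On the 22 chromosome sequences of the genome, counting both strands, the 82-base run had 17 exact copies. These genes were picked by their sequence after the first values of Lrrc17 were seen.

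Lrrc17 was among the more abundant genes of every section. It ranked 314th by UMIs of 20603 genes with a UMI in E3_young, and between 258th in E3_FAD and 977th in E4_FAD over the sections. The whole-section level was 430 CPM (95% Poisson interval 424 to 437) in E3_young and 287 CPM (281 to 292) in E4_young. It was 329 CPM (322 to 335) in E3_aged and 215 CPM (209 to 221) in E4_aged. It was 511 CPM (503 to 519) in E3_FAD and 181 CPM (177 to 186) in E4_FAD. The 3 E3 sections were the 3 highest, and no E4 section reached the lowest of them. All intervals cover counting error only. A Lrrc17 UMI was seen in 94.8%, 83.3% and 88.1% of the spots of E3_young, E3_aged and E3_FAD and in 88.6%, 67.5% and 68.0% of those of E4_young, E4_aged and E4_FAD. After every spot was thinned to 5000 UMIs, leaving out 288 to 777 shallower spots a section, these shares were 83.0%, 74.9% and 85.5% in E3 and 70.9%, 60.6% and 52.2% in E4. The E3 and E4 shares overlapped before thinning and did not overlap after it.

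**Figure D1:**
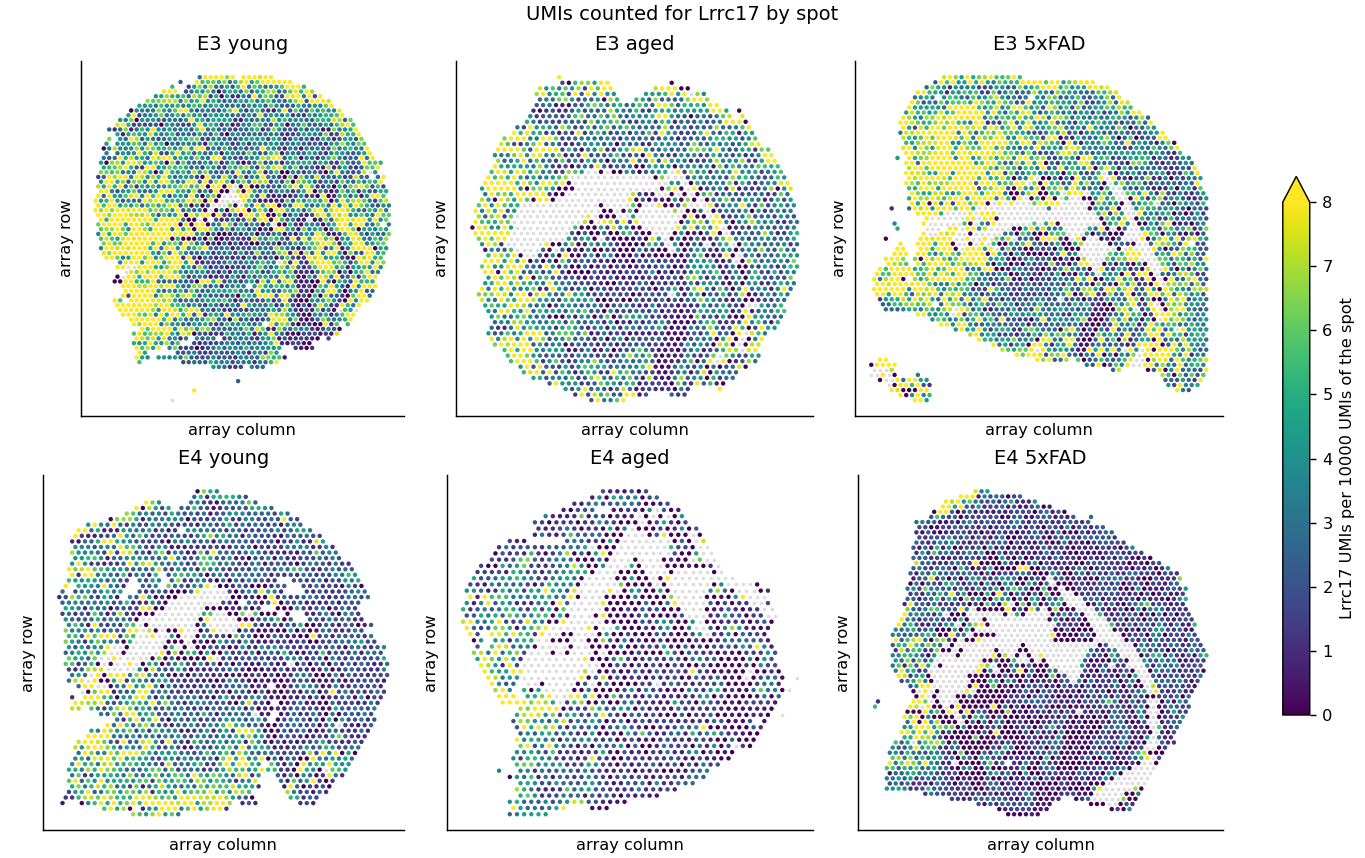
Lrrc17 UMIs per 10000 UMIs of each spot in the 6 sections, placed by array column and array row, with E3 above and E4 below. Spots under 1000 UMIs are grey and 10.9% of the others lie above the top of the colour scale at 8; the E3 sections are brighter than their E4 partners, and the brightest spots lie mainly towards the left side and the rim, and the darker spots towards the middle and right of the lower part.

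The level differed between areas. Spots were grouped into 21 clusters by their expression, with Lrrc17 left out of the clustering, and each cluster took the name of the marker list it matched best. The hypothalamus stood highest, at 568 CPM on average over the 6 sections (range 357 to 814). Its level was above that of its own section in all 6 by 0.82 ± 0.16 on the log2 scale (SD, n = 6). Fiber tracts followed at 547 CPM (359 to 778), with 0.78 ± 0.21 on the log2 scale against the section and again 6 of 6 above it. The area named for meninges and smooth muscle stood at 545 CPM (390.5 to 750.1), with 0.80 ± 0.33 and 6 of 6. Its leading genes were the pituitary hormone genes Prl and Gh together with Myoc, so the name covers only part of it. These 3 areas did not differ from each other beyond their spread over sections.

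Below them, striatum (327 CPM, range 203 to 507) and cortex (315 CPM, 173 to 467) lay close to their sections, at 0.02 ± 0.15 and -0.04 ± 0.13 on the log2 scale. Striatum was 0.76 ± 0.16 (log2, n = 6) below fiber tracts, in 6 of 6 sections. Thalamus had 250 CPM (137 to 325) and habenula 258 CPM (118 to 527, in the 5 sections that held at least 10 of its spots). Hippocampus was below its section in 6 of 6, at 175 CPM (90.1 to 286) and -0.92 ± 0.25 on the log2 scale. Choroid plexus and ventricle came last at 130 CPM (56.3 to 247), on 15 to 42 spots a section. Among these areas only the step from habenula to hippocampus, 0.43 ± 0.41 (log2, n = 5), was larger than its own SD. In bulk sums over spots, fewer cells of a type and less RNA in each cell cannot be told apart.

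Within the hippocampus the lowest levels were those of the deepest clusters, named CA3 (median 38059 UMIs a spot) and CA1 (27472). The part of depth in these levels was not tested. The CA3 cluster, led by Homer3 and Neurod6, had 64.1 CPM on average over the 4 sections with at least 10 of its spots, and the CA1 cluster led by Spink8 and Fibcd1 had 80.0 CPM. The dentate gyrus cluster (C1ql2) had 117 CPM and was above this CA1 cluster in 6 of 6 sections. A second CA1 cluster, with Spink8 and Cabp7 among its leading genes and a median of 8733 UMIs a spot against 27472 in the first, had 300 CPM (146 to 538). At the other end stood the hypothalamic cluster led by Nts and Baiap3 (592 CPM), a cluster led by the cholinergic genes Slc10a4 and Slc5a7 that matched fiber tracts best (563 CPM) and the hypothalamic cluster of Pmch and Hcrt (547 CPM). In cortex, over the 5 sections that held at least 10 spots of every layer (all but E4_aged), upper layers had 358 CPM, layer 5 303 CPM, layer 6 294 CPM and layer 4 272 CPM, and the layers overlapped across sections. The ventral cluster of cortex and cortical amygdala had 395 CPM (207 to 578) over the same 5 sections and overlapped the layers.

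**Figure D2:**
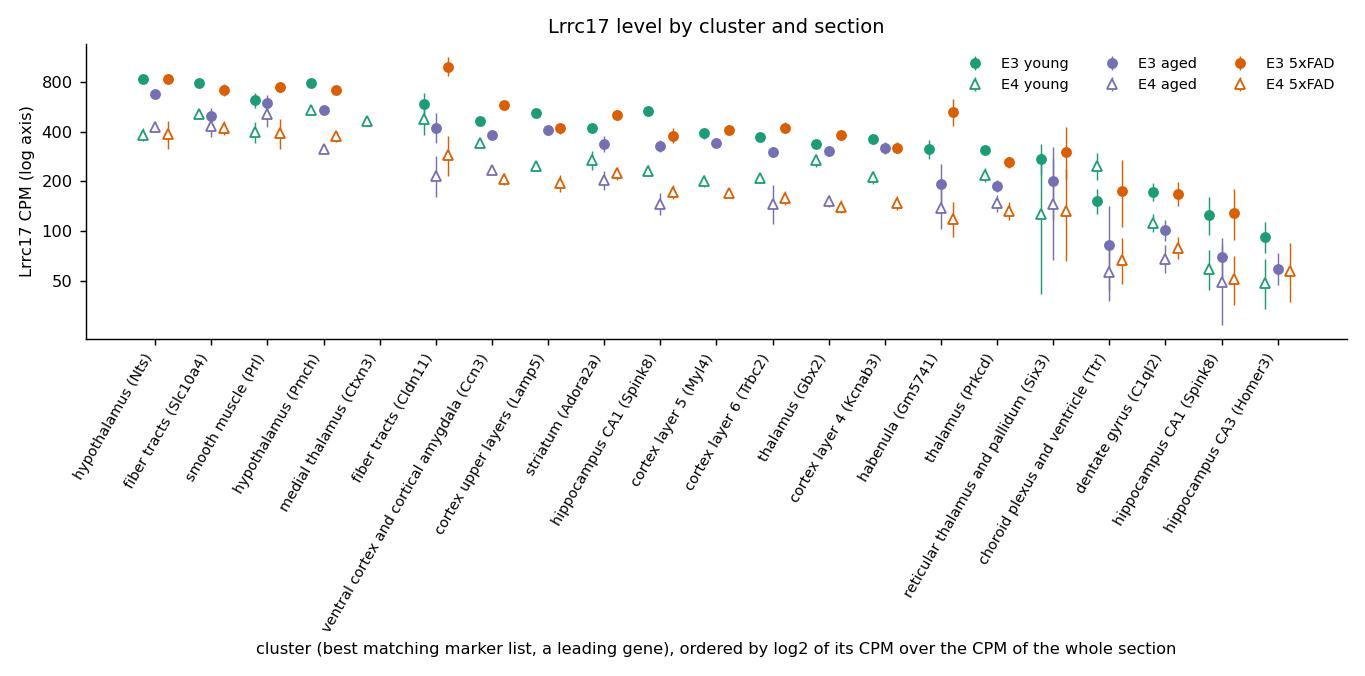
Lrrc17 level (CPM, log axis) in each cluster with at least 10 spots in a section, for 6 sections; filled circles are E3, open triangles E4, and bars are exact 95% Poisson intervals. Clusters run from hypothalamus at 592 CPM on average on the left to CA3 at 64.1 CPM on the right, and the filled circle lies above the open triangle of its colour in 53 of 54 pairs.

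The order was also set against fixed cell marker lists. Across the 21 clusters, Pearson's r of the Lrrc17 level with the mean standardised level of 8 pan-neuronal markers was -0.11, and 2 of the 8 had a positive r. For 5 glutamatergic markers r was -0.36, and for 6 GABAergic markers 0.26. It was 0.73 for 5 astrocyte markers, 0.77 for 4 markers of oligodendrocyte precursors, 0.64 for 5 endothelial markers and 0.41 for 5 oligodendrocyte markers. These values describe 21 clusters that share libraries and differ in depth, and CPM of one gene falls where others rise. The levels of Bc1, an RNA of neurons, gave nearly the same values, with r = -0.08 for the pan-neuronal and 0.73 for the astrocyte list, so this measure does not settle whether Lrrc17 counts come from neurons.

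One gene followed Lrrc17 far more closely than any cell type list did. Among 9800 genes with a mean of at least 10 CPM, Bc1 had the highest correlation with Lrrc17 across the 21 clusters, at r = 0.99, and it was also first over the 12 section values of cortex and hippocampus, with each region centred, at r = 0.92. The latter values are those on which Lrrc17 was chosen, so this second order is a description of that contrast. The next genes across clusters were Dusp26, a phosphatase (0.85), Tril, a receptor accessory protein (0.84), 2900052N01Rik (0.84) and Tmem91 (0.83). The next over section values were A2ml1 (0.90), Tmem184c (0.88), Pex19, a peroxisome import factor (0.87), and Dnpep, an aminopeptidase (0.86). Bc1 was also much more abundant as counted, with 0.411% to 1.14% of all UMIs of a section.

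The number of UMIs assigned to Lrrc17 for each 1000 assigned to Bc1 varied little where Lrrc17 itself varied widely. It was 49.3 in E3_young and 43.4 in E4_young over the whole section. It was 43.8 in E3_aged and 36.9 in E4_aged. It was 44.8 in E3_FAD and 44.1 in E4_FAD. Within E3_young the 20 clusters spanned 9.16-fold in Lrrc17 CPM but 1.63-fold in this ratio, from 39.3 to 64.0. Over the 6 sections the span was 7.78 to 11.5-fold in Lrrc17 CPM and 1.47 to 2.06-fold in the ratio. Pearson's r between the levels of the 2 genes (log2 of CPM + 1) lay between 0.97 and 0.99 within each section, over 16 to 20 clusters. For example, the CA1 cluster of Fibcd1 had 40.3 on average over sections and the Pmch cluster of hypothalamus 48.0.

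**Figure D3:**
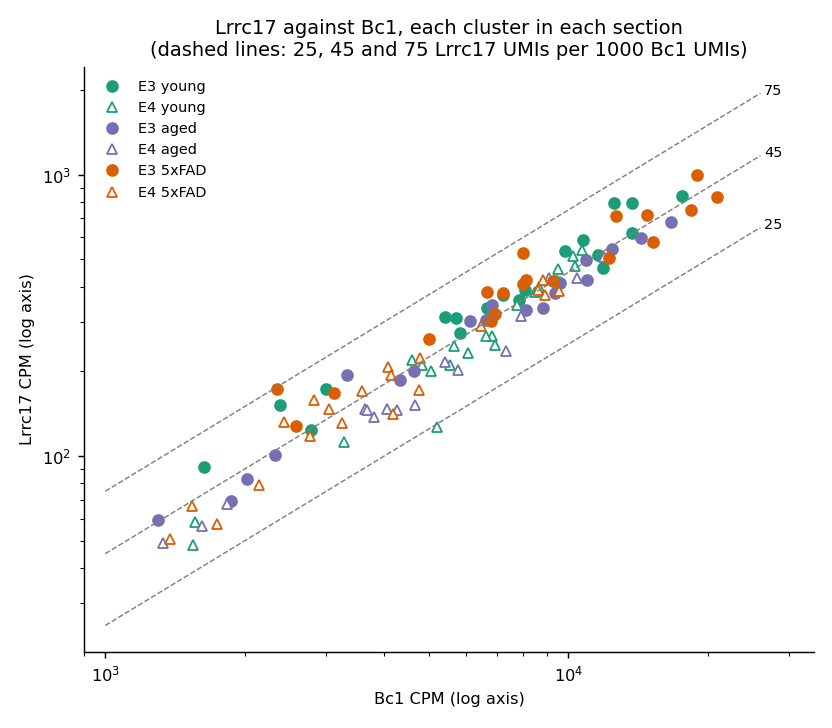
Lrrc17 CPM against Bc1 CPM (both log axes), 1 point for each cluster of at least 10 spots in each of the 6 sections; filled circles are E3, open triangles E4. The dashed lines mark 25, 45 and 75 Lrrc17 UMIs per 1000 Bc1 UMIs, and nearly all points lie between the outer lines over the whole range of both genes.

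The other genes that hold part of the Bc1 body did not behave this way. Akap5, which anchors signalling enzymes at synapses and has the 76-base stretch in antisense, had r = 0.06 with Bc1 across the clusters. Tatdn1 had r = 0.49 at 22.3 CPM on average over sections. Cnot3 had r = 0.19, Sez6 -0.02 and Supt7l -0.28, each with 43 to 45 bases in sense. Among the 5 sense carriers, Lrrc17 had the longest run, the highest level and the highest r. The others had runs of 43 to 57 bases and 15.3 to 135 CPM on average, against 72 bases and 325 CPM in Lrrc17. They are thus not matched to Lrrc17, which was also singled out before them, and no cause is read from this comparison. How many UMIs assigned to Lrrc17 came from Bc1 was not tested, since reads were not used here.

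The E4 against E3 differences that chose the gene were as follows. In cortex, E3_young had 424 CPM, E3_aged 355 CPM and E3_FAD 467 CPM. E4_young had 246 CPM, E4_aged 227 CPM and E4_FAD 173 CPM, so the E3 and E4 sections did not overlap. The log2 difference, E4 over E3, was -0.79 (95% interval from the counts -0.85 to -0.73) in the young pair, -0.64 (-0.75 to -0.54) in the aged pair and -1.43 (-1.50 to -1.36) in the 5xFAD pair. Its mean was -0.95 ± 0.42 (SD, n = 3 pairs). E4_aged cortex rested on 203 spots, against 735 to 962 in the other 5, and most of them were of the ventral cluster.

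In hippocampus, E3_young had 286 CPM, E3_aged 157 CPM and E3_FAD 256 CPM. E4_young had 146 CPM, E4_aged 90.1 CPM and E4_FAD 114 CPM. The groups again did not overlap, though E3_aged and E4_young lay close. The log2 differences were -0.97 (-1.10 to -0.85) in the young pair, -0.80 (-0.99 to -0.61) in the aged pair and -1.16 (-1.33 to -0.99) in the 5xFAD pair, with a mean of -0.98 ± 0.18 (SD, n = 3). Depth differed here, with a median of 7256 UMIs a spot in E3_young and 17104 in E4_young. It was 12501 in E3_aged and 12891 in E4_aged, and 6127.5 in E3_FAD and 16418 in E4_FAD. On spots with at least 5000 UMIs the differences were -0.84, -0.81 and -0.78 in the young, aged and 5xFAD pairs. The part of depth in these differences was not tested. Of genes with at least 20 UMIs in each pair, 9.24% were lower in E4 in all 3 pairs in cortex, 14.8% in hippocampus and 2.6% in both. The rule used this contrast, so nothing is read from Lrrc17 being one of them.

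By size, Lrrc17 stood at rank 3 from the lowest among 1852 genes, in cortex and in hippocampus. These genes had a mean of at least 100 CPM over the 6 whole sections and a UMI in every section of the region. The 2 below it were Pmch and Hcrt, peptide genes of the hypothalamus. Pmch, Hcrt and the next genes were picked after their values were seen. Bc1 came next in cortex, at -0.81 on average (-0.64, -0.15 and -1.64 in the young, aged and 5xFAD pairs). It was sixth in hippocampus, at -0.53 (-0.40, -0.57 and -0.62). The fourth in hippocampus was Gm42418 (-0.62) and the fifth in cortex mt-Atp8 (-0.67), a mitochondrially encoded subunit of ATP synthase. Bc1 was thus lower in E4 in the same 6 comparisons as Lrrc17.

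Per 1000 Bc1 UMIs the E4 against E3 difference shrank and in part turned. In cortex the ratio was 44.7 in E3_young and 40.4 in E4_young. It was 45.1 in E3_aged and 32.1 in E4_aged, and 42.9 in E3_FAD and 49.6 in E4_FAD. The log2 difference was -0.15 (-0.20 to -0.09) in the young pair, -0.49 (-0.59 to -0.39) in the aged pair and 0.21 (0.14 to 0.28) in the 5xFAD pair, where E4 was the higher. The mean moved from -0.95 to -0.14 ± 0.35 (SD, n = 3). In hippocampus the difference stayed below 0 in each pair, at -0.57, -0.23 and -0.54, with a mean of -0.45 ± 0.19. Hypothalamus had -0.09 ± 0.05 and thalamus -0.38 ± 0.21 on this scale.

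**Figure D4:**
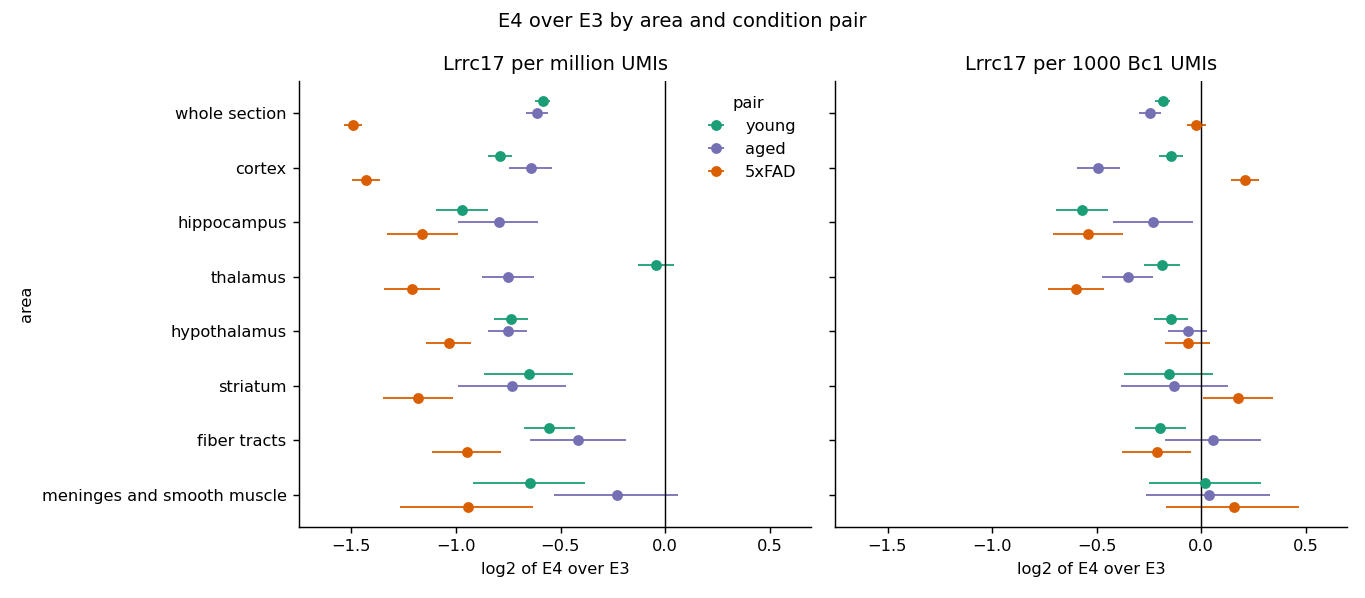
Log2 of E4 over E3 for Lrrc17 in the whole section and 7 areas, 1 point for each condition pair, with exact 95% intervals from the counts; left in CPM, right per 1000 Bc1 UMIs. On the left the 5xFAD pair lies farthest from 0 in each area, down to -1.49 for the whole section; on the right most points lie nearer to 0 and the cortex of the 5xFAD pair lies at 0.21.

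Outside the cortex and hippocampus, which the rule used, Lrrc17 was lower in E4 in 31 of 32 comparisons of a cluster within a pair, and the interval lay wholly below 0 in 24. Within them it was lower in 22 of 22. The median over all clusters was -0.65 on the log2 scale in the young pair, -0.62 in the aged pair and -1.18 in the 5xFAD pair. By area the mean over 3 pairs was -0.84 ± 0.17 in hypothalamus, -0.85 ± 0.29 in striatum, -0.64 ± 0.28 in fiber tracts and -0.61 ± 0.36 in the meninges and smooth muscle area. All areas of 1 section share that section's library, so they are not independent of cortex and hippocampus.

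Among clusters measured in all 3 pairs, the closest values between pairs were those of the CA1 cluster of Spink8 and Cabp7, at -1.21, -1.18 and -1.14 in the young, aged and 5xFAD pairs. Thalamus differed most between pairs among the 4 main areas: -0.04 (-0.13 to 0.04) in the young pair, -0.75 in the aged pair and -1.21 in the 5xFAD pair. In E4_young, 109 thalamic spots formed a cluster led by Ctxn3, Cbln4 and Cbln1 of which 95.6% lay in that section, and their level was 463 CPM. The mean over pairs was -0.79 without this cluster, against -0.67 with it. The exception to the direction was choroid plexus and ventricle in the young pair, with 152 CPM in E3_young and 247 CPM in E4_young (log2 0.70, interval 0.32 to 1.08, on 37 and 42 spots).

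With all spots, the 5xFAD pair had the largest difference in whole sections, cortex, hippocampus, thalamus and hypothalamus. This pair mixed 2 versions of Space Ranger in the file headers, 2.0.0 for E3_FAD and 1.2.2 for E4_FAD and the other 4 sections. Without this pair the mean was -0.72 in cortex and -0.88 in hippocampus. Of the spots marked as tissue, 99.9% entered in E3_FAD and 81.3% in E4_FAD. The part of the version and of this share in the difference was not tested. The summed level of marker lists is given beside it. In cortex the pan-neuronal level ranged from 7126 to 7858 CPM over the E3 sections and from 6180 to 7553 CPM over the E4 sections, and 2 of its 8 genes were lower in E4 in all pairs. In hippocampus the E3 sections had 5913 to 6357 CPM and the E4 sections 5179 to 6009 CPM, with 5 of 8 genes lower in all pairs. Oligodendrocyte markers went the other way, with 1792 to 2286 CPM in E3 cortex against 2457 to 2689 CPM in E4 cortex, with none of 5 genes lower in all pairs. The list of 4 blood genes differed by 0.73, -0.83 and -0.42 on the log2 scale in cortex and by -0.82, -1.48 and 0.65 in hippocampus (young, aged and 5xFAD pairs). No marker of these lists was at 0, and their part in the Lrrc17 difference was not tested.

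The genes beside Lrrc17 on chromosome 5 showed no fall of its size in all 3 pairs. Of the 5 nearest genes on each side, Ccdc146 had under 20 UMIs in each pair of both regions, as did Fgl2 in each pair and Gsap in the aged pair of hippocampus. Cortical Fgl2, on few UMIs, was higher in E4 by 0.64, 1.68 and 0.33 on the log2 scale in the young, aged and 5xFAD pairs. In cortex Ptpn12, Fam185a and Armc10 were higher in E4 in all 3 pairs, by 0.07 to 0.32 on the log2 scale. Psmc2, a proteasome subunit, had 0.11, -0.0029 and 0.11 in the young, aged and 5xFAD pairs. Pmpcb, which processes mitochondrial precursors, had -0.16, -0.09 and 0.0025 in cortex and was lower in all 3 pairs of hippocampus, at -0.04, -0.06 and -0.30. The largest fall near Lrrc17 in hippocampus was that of Napepld, which makes N-acylethanolamines, at -0.97 (-1.39 to -0.55) in the 5xFAD pair, but it had -0.26 and 0.08 in the young and aged pairs.

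**Figure D5:**
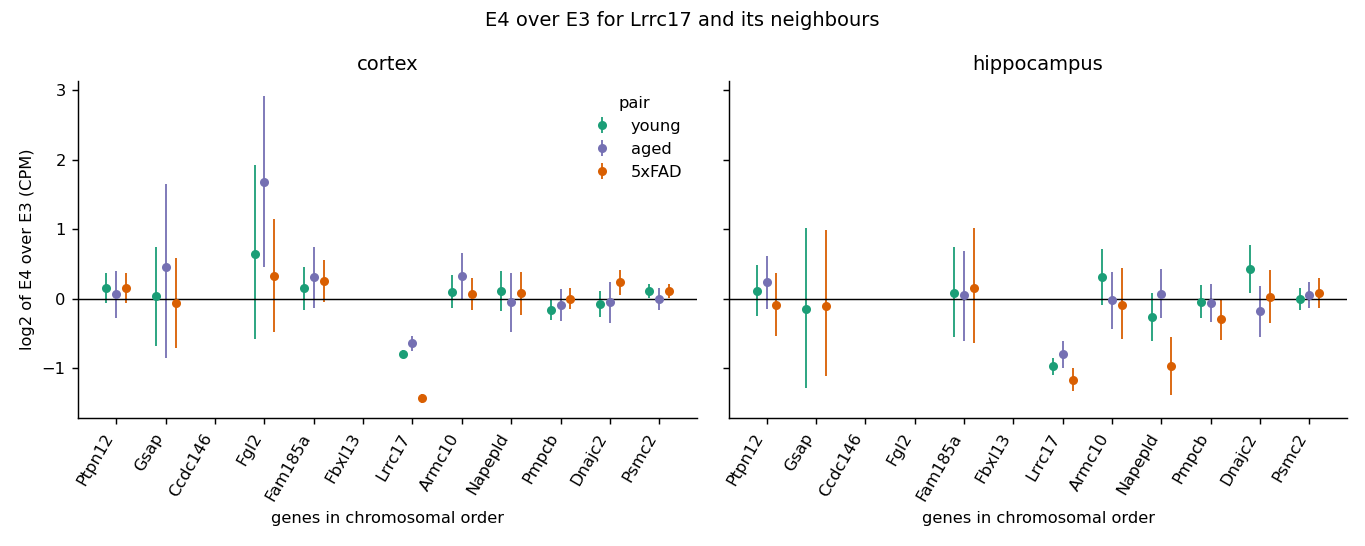
Log2 of E4 over E3 in CPM for Lrrc17, the 5 annotated genes nearest on each side and the overlapping Fbxl13, in chromosomal order, in cortex (left) and hippocampus (right); points are the 3 condition pairs with exact 95% intervals, and pairs under 20 UMIs are left out. Lrrc17 lies at -0.64 or below in all 6 comparisons, while most of its neighbours scatter about 0.

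The effects of age and of 5xFAD were not used by the rule and were tested over sections with edgeR, with genotype in the model and Benjamini-Hochberg adjustment over all genes of an area. The sections of 1 condition differ in APOE genotype and came from separate mice, so the spread comes from how the genotypes differ between conditions, with 2 residual degrees of freedom. Lrrc17 fell with age in hippocampus. In E3 it was 286 CPM in the young and 157 CPM in the aged section, and in E4 146 and 90.1 CPM, a log2 difference of -0.79 ± 0.11 (SE, adjusted p = 0.000831, edgeR, lower in both genotypes). The background was low, with 0.537% of 13214 genes called in this comparison. The summed oligodendrocyte markers were lower in the same aged hippocampi, at 3928 and 2266 CPM in E3_young and E3_aged and 4662 and 2305 CPM in E4_young and E4_aged, while the pan-neuronal list was higher by 0.08 and 0.21 on the log2 scale and the blood list by 2.81 and 2.16. The part of these in the Lrrc17 difference was not tested. The call held in each of 12 alternatives, with differences of -0.90 to -0.61 and adjusted p of 5.1e-11 to 0.0221.

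Bc1 also fell with age in hippocampus, by -0.55 ± 0.08 (SE, adjusted p = 0.00135, edgeR). Per 1000 Bc1 UMIs, Lrrc17 went from 54.7 to 41.4 in E3 hippocampus and from 36.8 to 35.3 in E4 hippocampus, or -0.40 and -0.06 on the log2 scale. The difference on this scale was thus present mainly in E3, which 1 section a group cannot test.

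No other area gave a call with age in the reported test. The log2 differences between aged and young were -0.22 ± 0.18 in cortex (adjusted p = 0.96), -0.73 ± 0.23 in thalamus (adjusted p = 0.64) and -0.43 ± 0.11 in hypothalamus (adjusted p = 0.352), all by edgeR, with 0.02%, 0.149% and 0.184% of genes called. The thalamic difference passed the threshold without E3_young (-1.21, adjusted p = 4.6e-18) and shrank to -0.201 without E4_young (adjusted p = 0.993, edgeR). The hypothalamic difference kept its size, -0.43, without E3_FAD and without E4_FAD, but it passed the threshold in both fits. Each of these fits leaves 1 section of the 5xFAD condition. The absence of a call in hypothalamus thus depended on the sections included. Whether the age effect differed between areas was not tested.

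5xFAD gave no call in any of the 4 areas. The log2 differences between 5xFAD and young were -0.26 ± 0.18 in cortex (adjusted p = 0.709), -0.32 ± 0.11 in hippocampus (adjusted p = 0.224), -0.69 ± 0.23 in thalamus (adjusted p = 0.245) and -0.29 ± 0.11 in hypothalamus (adjusted p = 0.592), by edgeR, where 0.989%, 1.27%, 2% and 0.299% of genes were called. In cortex the genotypes moved apart: E3 had 424 CPM in the young and 467 CPM in the 5xFAD section, while E4 had 246 and 173 CPM. Bc1 did the same there, at 0.20 in E3 and -0.80 in E4 on the log2 scale. Since 5xFAD was sampled at 12 months and young at 3 months, age and transgenes cannot be told apart here. The thalamic difference passed without E3_young (-1.19, adjusted p = 3.7e-17) and without E3_FAD (-1.16, adjusted p = 0.0105), and shrank to -0.182 without E4_young and to -0.26 without E4_FAD (adjusted p = 0.670 and 0.917, edgeR).

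Spots near amyloid-responding microglia were marked by Cst7, a gene of activated microglia that stood at 46.9 CPM in E3_FAD cortex and 113 CPM in E4_FAD cortex and at no more than 1.46 CPM in the 4 sections without 5xFAD. In E3_FAD cortex, 372 spots with a Cst7 UMI had 476 CPM of Lrrc17 and 590 spots with none had 460 CPM, a log2 difference of 0.05 (-0.02 to 0.12). In E4_FAD cortex, 602 spots with Cst7 had 176 CPM and 259 with none had 166 CPM, a difference of 0.08 (-0.05 to 0.21). Neither cortical difference was larger than the counting error. In hippocampus the sections went opposite ways, with -0.32 (-0.66 to 0.01) in E3_FAD and 0.35 (0.11 to 0.59) in E4_FAD. Spots with Cst7 were deeper in all 4 cases, and the part of depth in these values was not tested.

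Few genes of related function were called in these comparisons. Of 40 leucine-rich repeat genes of synaptic adhesion and axon guidance, 36 to 37 were tested in each of the 8 comparisons with age or 5xFAD, and edgeR and DESeq2 each called 0, with 1 to 10 at an unadjusted p under 0.05, where 4.17% to 10.7% of all genes were. The 10 were those of 5xFAD cortex, all lower, out of 37 tested, where 10.2% of all genes had such a p. The median difference of all tested members of this list lay between -0.04 and 0.11 (log2) over the 8 comparisons, against -0.003 to 0.001 over all genes. Of 25 genes for secreted leucine-rich repeat proteins, 16 to 19 were tested. The sole call was Lgi4, a myelination factor, higher in 5xFAD thalamus by 0.77 ± 0.17 (SE, adjusted p = 0.0452, edgeR), where 2% of all genes were called. An unadjusted p under 0.05 (edgeR) was found for 1 to 6 of them in a comparison. The 6 were those of cortex with age, all lower, out of 19 tested, where 4.17% of all genes had such a p. Of 13 genes of the RANK ligand pathway, 11 to 12 were tested. Fos, an immediate early gene, was higher with age in hippocampus (3.62 ± 0.29, adjusted p = 1.8e-06) and hypothalamus (1.97 ± 0.14, adjusted p = 6.1e-05), and Nfkb2, an NF-kappaB subunit, was higher in 5xFAD hippocampus (0.76 ± 0.15, adjusted p = 0.0133), all by edgeR, where 0.537%, 0.184% and 1.27% of all genes were called. DESeq2 called none of the secreted proteins and made 2 calls in the RANK ligand pathway. None of the 3 lists had a member called lower by edgeR.

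The E4 against E3 contrast is given for the lists beside the shares of all genes, 9.24% in cortex and 14.8% in hippocampus. In cortex 4 of 36 measured adhesion and guidance genes, 3 of 15 secreted ones and 1 of 12 RANK ligand pathway genes were lower in E4 in all 3 pairs, and in hippocampus 7 of 35, 1 of 15 and 3 of 9. Lingo1, the adhesion gene with the highest CPM in cortex, had 363, 339 and 344 CPM in E3_young, E3_aged and E3_FAD and 326, 365 and 311 CPM in E4_young, E4_aged and E4_FAD, with E3 and E4 overlapping. Ntrk2, a neurotrophin receptor, was lower in E4 cortex by 0.04 to 0.14 on the log2 scale. Omg, a myelin glycoprotein, had 0.05, -0.18 and 0.02.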

How the data were processed

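The 6 Visium sections, 1 in each group, were analysed. The authors deposited UMI counts per gene and barcode together with spot positions and a tissue mask; per the labels they were made with Space Ranger 1.3.0 and STAR 2.5.1b on mm10 with added human genes, while the file headers name Space Ranger 2.0.0 for E3_FAD and 1.2.2 for the others. The deposited positions and mask were used only to keep spots within tissue that had counts (14524 of 16979 mask spots). The share of mask spots kept was 86.0% in E3_young, 83.5% in E4_young, 85.5% in E3_aged and 75.9% in E4_aged. It was 99.9% in E3_FAD and 81.3% in E4_FAD. Barcodes with counts outside the mask numbered 6 in E3_FAD and 432 to 672 in the other sections. The part of this unequal cover in the section differences was not tested. Mouse genes and a few human genes, among them APOE and APP, were kept; some items are not reported here. For strand handling in the counting, the sources used here name no setting.

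Spots were clustered with Seurat 5.3.0 (3000 variable genes, regression on UMIs and mitochondrial share, centring within sections, 20 components, resolution 0.8) and named by fixed marker lists. UMIs were summed by area and section and given as CPM with exact Poisson intervals; differences have exact conditional binomial intervals at 95%, which cover counting error only. Age and 5xFAD were tested with edgeR 4.0.16 (quasi-likelihood, genotype + condition, filterByExpr, TMM, adjusted p threshold 0.05), with DESeq2 1.42.0 as an alternative; the fit was tested on simulated data. No test used spots as replicates. Genes were named by rule: the 5 genes most like Lrrc17 by each of 2 correlations, its 5 neighbours on each side, members of the fixed lists that were called or had the highest CPM, and markers beside a result. The members and lists were chosen with earlier results of these data known, and the comparison with Bc1 was made after the data were seen. Bc1 was compared with GENCODE vM21 transcripts and the GRCm38 genome. Alternatives were other clusterings, depth minimums, scalings, spot matching and leaving out sections or pairs.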

Additional observations from a re-analysis of the deposited data

Results flagged for a closer look

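Barcodes outside the tissue mask, which entered no comparison, also carried Lrrc17. The level there was 327 CPM in E3_young, 209 CPM in E4_young, 192 CPM in E3_aged, 186 CPM in E4_aged, 356 CPM in E3_FAD (18 UMIs on 6 barcodes) and 184 CPM in E4_FAD. In UMIs per barcode the level was 0.774, 0.495, 0.282, 0.231, 3 and 0.534, against 6.01, 4.38, 4.34, 2.59, 5.46 and 2.19 per spot within the mask of the same sections.

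In hippocampus of the 5xFAD sections, Lrrc17 in spots with Cst7 over spots without was -0.32 on the log2 scale in E3_FAD and 0.35 in E4_FAD, in opposite directions. The difference between the sections was not tested.

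In choroid plexus and ventricle, Lrrc17 in E4 over E3 was 0.70 on the log2 scale in the young pair, -0.55 in the aged pair and -1.39 in the 5xFAD pair. The difference between the pairs was not tested, and the sections held 15 to 42 of these spots.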

How the results depend on the processing

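No paired analysis was possible because each group has 1 section, so the groups share no replicate numbers; the fits for age and 5xFAD carried genotype as a term. The mean E4 over E3 difference stayed negative in cortex, hippocampus, thalamus and hypothalamus under every alternative run. Leaving out each pair in turn gave -1.11 to -0.72 in cortex, -1.07 to -0.88 in hippocampus, -0.98 to -0.40 in thalamus and -0.89 to -0.74 in hypothalamus. It moved beyond its spread per UMI of Bc1 (-0.14 in cortex, -0.45 in hippocampus, -0.0909 in hypothalamus), an alternative chosen after seeing the data, and as a mean over spots in hippocampus (-1.25). In the young pair the thalamus turned to 0.0227 with TMM-scaled library sizes and to 0.25 per UMI of the pan-neuronal list; the cause was not tested. As a mean over spots, hippocampus over its section moved from -0.92 to -0.60 and striatum turned from 0.02 to -0.23.

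With 1 section left out at a time, the age difference ranged over -0.46 to 0.0274 in cortex, -0.90 to -0.65 in hippocampus, -1.21 to -0.201 in thalamus and -0.51 to -0.343 in hypothalamus, and turned positive in cortex without E3_aged (0.0274). The 5xFAD difference ranged over -0.66 to 0.10 in cortex, -0.44 to -0.21 in hippocampus, -1.19 to -0.182 in thalamus and -0.46 to -0.15 in hypothalamus, and turned positive in cortex without E4_FAD (0.10). With no filter beyond 1 UMI, age passed the threshold in thalamus (-0.73) and hypothalamus (-0.43), and 5xFAD in thalamus (-0.69). The number of all genes called also moved: with age in hippocampus 71 in the reported test, 158 without the filter, 32 by DESeq2, and 55 to 204 with 1 section left out. In cortex the count with age was 3, against 17 without the filter, 13 by DESeq2 and 572 without E3_aged. With 5xFAD it was 148 in cortex, 307 without the filter, and 168 in hippocampus, 51 by DESeq2. In thalamus it was 20 with age and 269 with 5xFAD, and 609 and 906 without E3_young. In hypothalamus it was 24 and 39, and 144 and 160 without the filter. Per-section depth limits the smaller areas, such as E4_aged cortex with 924 Lrrc17 UMIs and choroid plexus of E3_aged with 13.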
